A study of Mus musculus with 28 samples.

Results

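The genes described here encode the nuclear subunits of complexes I, III, IV and V of oxidative phosphorylation, followed through mRNA levels in mouse CD4+ T cells. They were chosen by symbol, as names beginning with Nduf and a subunit letter and number, with Uqcr, with Cox4 to Cox8, or with Atp5, whose highest value over the 9 RNA libraries reached 1 RPKM (reads per kilobase of transcript, scaled to the total of the library). Of 81 symbols that matched, 75 passed, among 11048 genes of the files that reached the same level. By complex, 36 belonged to complex I, 8 to complex III, 14 to complex IV and 17 to complex V. Where a symbol had several transcripts, the one with the highest mean RPKM was used.

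The libraries came from CD4+ T cells of the spleens of wild-type C57BL/6 mice, which all groups share. All cells were first activated for 3 days on plates carrying antibody to CD3, with antibody to CD28, and then rested overnight. Cells then received either no cytokine (the control), IL-2 or IL-21, and the treated cells were collected at 0.5, 2, 4 and 24 h, with 1 library for each of the 9 conditions. The labels give no mouse ages, and cytokine doses are stated for the chromatin cultures only. Every comparison with the control uses the same control library, and no untreated library of the later times is used, so in those comparisons the cytokine cannot be told apart from the hours of culture. IL-2 and IL-21 libraries of 1 time share those hours.

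Complex I takes electrons from NADH and hands them to ubiquinone, complex III moves them on to cytochrome c, and complex IV passes them to oxygen, while each of these pumps protons across the inner mitochondrial membrane. Complex V, the ATP synthase, lets the protons back through a rotating ring of c subunits and uses that rotation to make ATP. Most subunits are encoded in the nucleus and a small core of complexes I, III, IV and V in mitochondrial DNA. T cells are known to build respiratory capacity together with glycolysis when they are activated and grow, and IL-2 is a growth factor for activated T cells. The names searched for the mitochondrially encoded subunits matched 0 rows of the files, so the values below concern the nuclear genes only.

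Library totals ran from 29.5 to 44.3 M reads, and the 75 genes together held between 152702 and 214374 reads per library. T cell receptor and co-receptor genes were abundant in all 9 libraries, with Cd3e between 144 and 209 RPKM and Cd4 between 112 and 208 RPKM. With 1 library per condition, a difference between 2 libraries has no replicate check and carries no p-value. Differences are given on the log2(RPKM + 1) scale, which understates changes of low genes, and a ratio of RPKM values is followed by its exact 95% interval, which comes from the 2 read counts and covers counting error only, because the reads carry no molecular identifiers.

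After 24 h of IL-2 the subunit genes stood higher than in the control as a set, and after 24 h of IL-21 they did not. The median log2 difference of the 75 genes was 0.50 after 24 h of IL-2, and 67 of them lay above 0. Over all 11048 genes the median was 0.05 and 52.5% lay above 0. With IL-21 at the same time the median of the 75 was -0.07, with 24 above 0, beside a median of -0.0038 and 49.6% over all genes. Between the cytokines at 24 h the median was 0.54 in favour of IL-2, with 69 of 75 above 0. Over all genes that median was 0.07 and 54.0% lay above 0. In bulk RNA, fewer cells of a type and less RNA per cell cannot be told apart, and this holds for every difference below.

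By complex, the medians after 24 h of IL-2 were 0.50 for complex I, 0.56 for complex III, 0.27 for complex IV and 0.54 for complex V. The corresponding medians after 24 h of IL-21 were -0.06, -0.19, -0.14 and -0.08. IL-2 exceeded IL-21 at 24 h by medians of 0.45, 0.74, 0.63 and 0.53 for complexes I, III, IV and V. All 4 complexes thus stood above the control with IL-2 and slightly below it with IL-21 at that time.

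**Figure D1:**
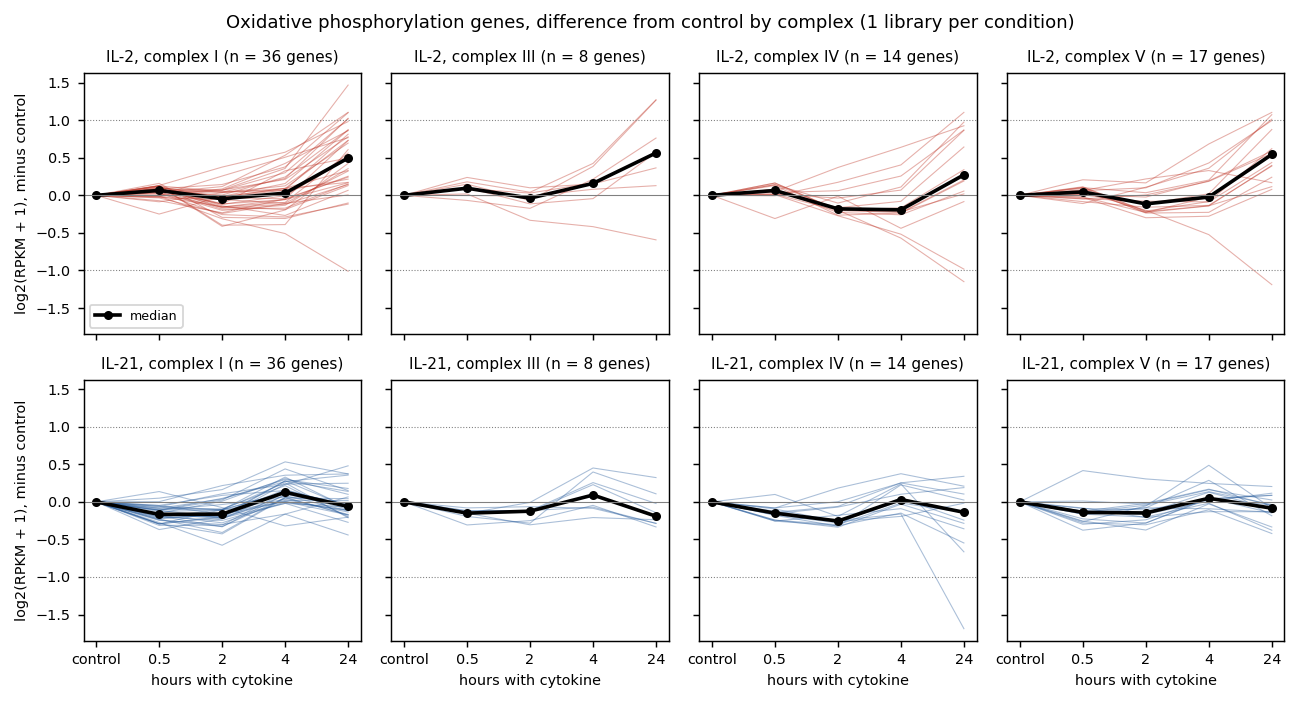
Difference from the control in log2(RPKM + 1) against hours with cytokine, for each gene (thin lines) and the median of the complex (black), with IL-2 in the upper row and IL-21 in the lower row; each point is 1 library and dotted lines mark 2-fold. The medians stay within 0.26 of the control up to 4 h with either cytokine and reach 0.27 to 0.56 after 24 h of IL-2.

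Summed over its genes, complex I reached 1700.2 in the control, 1772, 1567, 1676 and 2325 under IL-2 and 1506, 1482, 1817 and 1641 under IL-21, in RPKM and in the order 0.5, 2, 4 and 24 h. The sums of complex V were 2134 in the control, 2172, 1990.3, 2210.5 and 3203 under IL-2 and 1875, 1882, 2247 and 1971 under IL-21. Complex III gave 679.7 in the control, 710.0, 611, 659 and 834 under IL-2 and 608, 588, 683 and 607 under IL-21. The highest sum in each case was that of the 24 h IL-2 library. Complex IV behaved alike, with 1582 in the control, 1673, 1411, 1433 and 1961 under IL-2 and 1396, 1332, 1593 and 1466 under IL-21. The 75 genes took 1.39% of the RPKM sum of the control library and 1.97% of that after 24 h of IL-2, while the 4 IL-21 libraries lay between 1.32% and 1.52%.

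The higher levels with IL-2 appeared between 4 and 24 h. Over that step 69 of the 75 genes were higher under IL-2, with a median difference of 0.44, and 12 of 75 were higher under IL-21, with a median of -0.19. Of all 11048 genes, 5543 and 4702 were higher over the same step, with medians of 0.0019 and -0.06. Before it the courses were shallow. With IL-2, 56 of the 75 genes lay above the control at 0.5 h (median 0.06), 25 at 2 h (median -0.10) and 37 at 4 h (median -0.01), where 55.7%, 45.9% and 50.7% of all genes did. With IL-21, 6 genes lay above the control at 0.5 h, 11 at 2 h, 54 at 4 h and 24 at 24 h, against 36.9%, 44.8%, 51.7% and 49.6% of all genes.

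At 0.5 h the 2 cytokine libraries already differed slightly, since IL-2 exceeded IL-21 in 69 of 75 genes, by a median of 0.23. Over all genes 64.2% lay in that direction, with a median of 0.08. The order turned at 4 h, where 24 of 75 were higher with IL-2 (median -0.08). IL-2 exceeded IL-21 at all 4 times in 19 genes, at 3 times in 42, at 2 times in 9 and at 1 time in 5. The same count over all genes is not given, so these numbers have no background share beside them.

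Counted at 2-fold or more, no member differed from the control before 24 h. The background over all genes, in either direction, was 0.444% after 0.5 h, 4.46% after 2 h and 8.67% after 4 h of IL-2, and 0.38%, 2.9% and 2.53% at the same times of IL-21. After 24 h of IL-2, 11 of the 75 genes (14.7%) were at least 2-fold higher, against 9.58% of all genes, and 3 (4.0%) at least 2-fold lower, against 6.64%. At 1.5-fold, 32 of 75 (42.7%) were higher, against 22.6% of all genes, and 5 (6.67%) lower, against 17.2%. In the 24 h IL-21 library no member was 2-fold higher and 1 was 2-fold lower, with 3.48% of all genes past the fold in either direction.

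Between the cytokines, 0 members passed 2-fold at 0.5, 2 or 4 h, where 0.507%, 1.33% and 3.91% of all genes did. At 24 h, 9 of 75 (12.0%) were 2-fold higher with IL-2, against 9.85% of all genes, and 1 (1.33%) was lower, against 6.06%. Between the cytokines the share 2-fold higher was therefore close to that of all genes, and the share 2-fold lower was under it. The medians and the 1.5-fold counts of members stood further from all genes than the share 2-fold higher. These counts depend on how libraries are scaled. Against the control, 8 members were higher and 4 lower with trimmed-mean (TMM) factors or with DESeq2 size factors, and 3 were higher and 4 lower with upper quartile scaling, which moved the median of all genes from 0.05 to -0.12 and that of the members from 0.50 to 0.30. Members above 0 numbered 67 as deposited and 63, 65 and 54 with the TMM, DESeq2 and upper quartile factors. The median of all genes was -0.0082 with the TMM and 0.0126 with the DESeq2 factors. Between the cytokines at 24 h the same 3 scalings gave 4 higher and 2 lower, 6 higher and 2 lower, and 3 higher and 2 lower. The medians of all genes were then -0.0291, 0.0019 and -0.0713. Shares of all genes past the fold or above 0 are not given for these scalings, so the rescaled counts have no background share beside them.

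**Figure D2:**
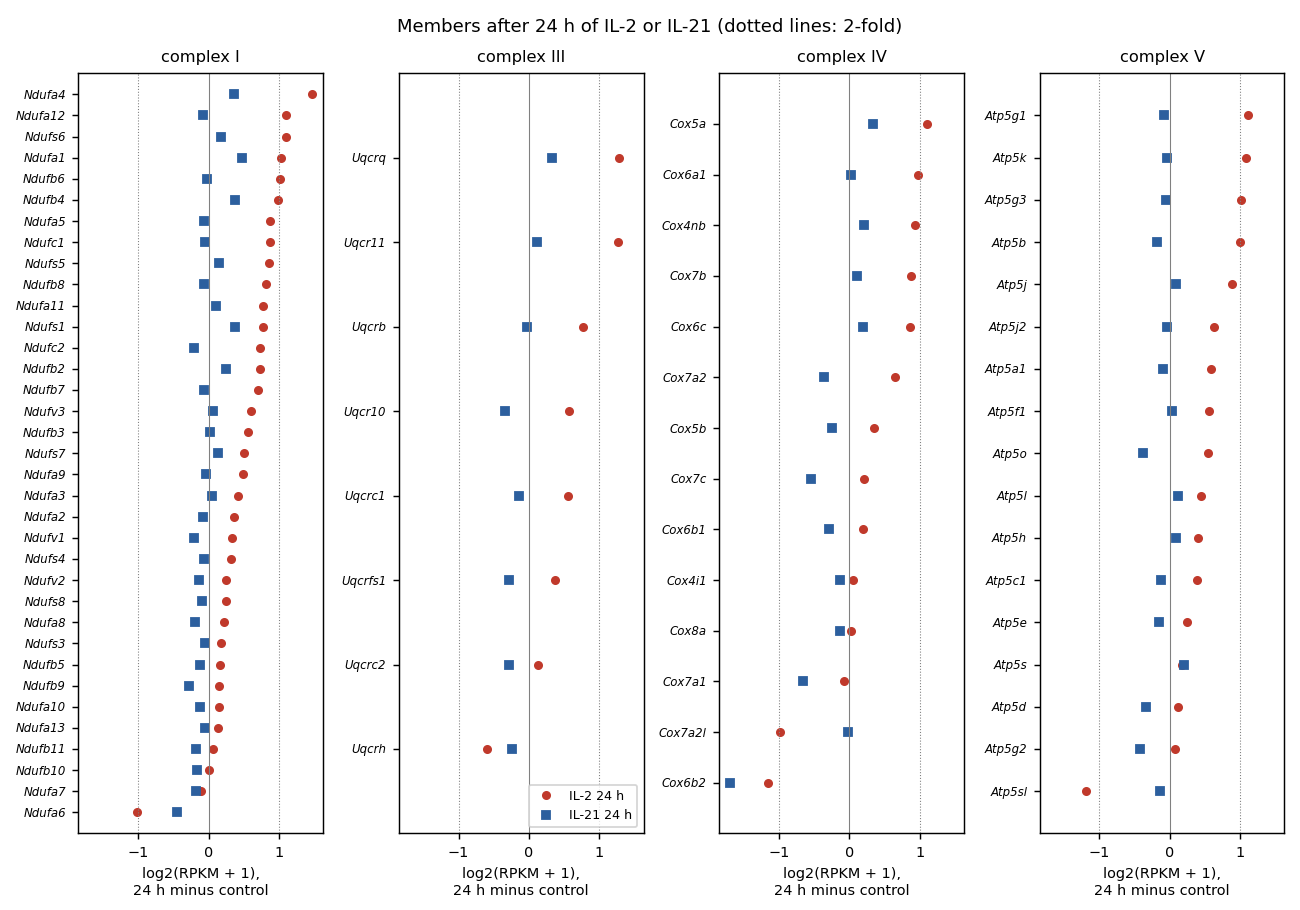
Difference in log2(RPKM + 1) between 24 h of cytokine and the control for the members shown by name, ordered within each complex by the IL-2 value; circles are the IL-2 library, squares the IL-21 library, and dotted lines mark 2-fold. Most circles lie right of 0 and of their square, and the circles of Ndufa6, Uqcrh, Cox7a2l, Cox6b2 and Atp5sl lie clearly left of 0.

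Complex I held the widest range of differences after 24 h of IL-2, from -1.01 to 1.47 among its 36 genes. Its 7 core subunits in the list, which carry the flavin and the iron-sulfur clusters, had a median of 0.25 at 24 h of IL-2, and its 29 accessory subunits, which surround that core, had a median of 0.61. Genes of this complex at least 2-fold higher after 24 h of IL-2 numbered 5, and 1 was 2-fold lower. In the control their levels ran from 6.92 RPKM for Ndufa11 to 132 RPKM for Ndufa6, with a median of 43.5 RPKM.

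Among the core subunits, Ndufs1, the largest iron-sulfur subunit, measured 16.8 RPKM in the control, 16.8, 20.2, 24.2 and 29.2 under IL-2 at 0.5, 2, 4 and 24 h, and 16.8, 19.6, 21.7 and 22.0 under IL-21. Its level after 24 h of IL-2 was 1.74 times (95% interval 1.64 to 1.86) the control. Its values were higher at each time after 0.5 h with both cytokines.

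Ndufa4 gave the largest difference above the control of any member. Although named for complex I, its protein is now placed with complex IV. Its levels were 52.0 RPKM in the control, 53.6, 54.7, 66.9 and 146 under IL-2, and 48.1, 53.7, 62.9 and 66.8 under IL-21. The 24 h IL-2 library stood far above the other 8, at 2.80 times (95% interval 2.59 to 3.03) the control, whereas the 24 h IL-21 library was 1.29 times (95% interval 1.18 to 1.40) the control.

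Ndufa12, an accessory subunit of the NADH-oxidising arm, measured 36.9 RPKM in the control, 37.8, 40.1, 53.8 and 80.5 under IL-2 and 34.5, 34.2, 46.6 and 34.8 under IL-21. Ndufs6, a zinc-binding accessory subunit of the same arm, measured 33.6 RPKM in the control, 35.8, 37.3, 44.0 and 73.2 under IL-2 and 31.7, 34.5, 41.5 and 38.2 under IL-21. Both were highest after 24 h of IL-2 and had their next highest value at 4 h of IL-2 (Ndufa12: 53.8 RPKM, Ndufs6: 44.0 RPKM). Ndufa1, a small membrane subunit encoded on the X chromosome, read 33.0 RPKM in the control, 34.7, 34.1, 38.8 and 68.3 under IL-2 and 31.6, 35.7, 38.9 and 46.5 under IL-21. It was the complex I gene highest above the control after 24 h of IL-21, at 1.41 times (95% interval 1.26 to 1.57) the control.

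Accessory subunits of the membrane arm ranged widely after 24 h of IL-2. Ndufb6 stood at 33.4 RPKM in the control, 33.0, 35.0, 41.4 and 68.7 under IL-2 and 30.9, 32.6, 35.0 and 33.0 under IL-21, and Ndufb4 at 35.4, then 38.9, 46.3, 53.2 and 71.0 and 36.7, 39.8, 51.7 and 46.2. Ndufc1 was below its control value of 27.5 RPKM at 0.5 h of both cytokines, with 23.0, 27.3, 30.8 and 51.1 under IL-2 and 21.1, 23.4, 30.7 and 26.5 under IL-21. In the 24 h IL-2 library these 3 genes were 2.06 times (95% interval 1.86 to 2.27), 2.00 times (95% interval 1.80 to 2.23) and 1.86 times (95% interval 1.64 to 2.11) the control. The more abundant accessory subunits differed less, with Ndufa3 at 1.35 times (95% interval 1.25 to 1.46), Ndufv3 at 1.53 times (95% interval 1.43 to 1.64) and Ndufb9 at 1.11 times (95% interval 1.04 to 1.19) the control. Ndufb10, Ndufb11 and Ndufb5 were 1.00 times (95% interval 0.933 to 1.08), 1.05 times (95% interval 0.984 to 1.12) and 1.13 times (95% interval 1.05 to 1.21) the control. The 24 h IL-21 library had Ndufb9 at 0.826 times (95% interval 0.770 to 0.885) the control.

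Ndufa6, a LYR-motif subunit that binds the mitochondrial acyl carrier protein, went the other way and was the most abundant complex I gene of the control. It measured 132 RPKM there, 131, 106, 92.4 and 65.0 under IL-2 and 111, 107, 118 and 96.9 under IL-21. Its values under IL-2 were lower at each later time, ending at 0.492 times (95% interval 0.459 to 0.528) the control, and the 24 h IL-21 library was also below the control, at 0.735 times (95% interval 0.693 to 0.779).

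Promoter sequence was read from RefSeq for assembly GRCm38.p6, whose build differs from that of the files, as the 130 bases before a gene's annotated start, 5′ to 3′ on the gene's strand. It is shown for 7 members: Uqcr11 and Cox6a1, which were high after 24 h of IL-2, Ndufa6 and Uqcrh, which were low, and the 3 genes of the c ring, which differed among themselves. Capitals mark matches, on either strand, to the letters GCGCATGC (the core bound by the nuclear respiratory factor NRF1), CCGGAAG (the ETS family, which includes GABP), AAGATGG (YY1), AAGGTCA (oestrogen-related receptors), CACGTG (the E-box bound by MYC and others) and CCAAT (NF-Y). Of these, GABP, NRF1, YY1 and the oestrogen-related receptors are known regulators of respiratory genes. The window of Ndufa6, at chr15:82354292-82354421 on the minus strand, holds the NRF1 letters on the opposite strand, with the first base 83 before the start, and a CCAAT box 52 before it.
Ndufa6: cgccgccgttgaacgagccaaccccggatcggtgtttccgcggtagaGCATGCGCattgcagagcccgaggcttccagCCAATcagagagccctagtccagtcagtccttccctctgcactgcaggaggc

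Complex III, with 8 genes, split into higher small subunits and a lower hinge protein. Genes of this complex at least 2-fold higher after 24 h of IL-2 numbered 2, and 0 were 2-fold lower. Its 3 core-sized subunits had a median difference of 0.37 with IL-2 and -0.29 with IL-21 at 24 h. Control levels ran from 37.4 RPKM for Uqcr11 to 287 RPKM for Uqcrh, with a median of 55.8 RPKM.

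Uqcrq, a small subunit beside cytochrome b, measured 47.3 RPKM in the control, 53.7, 48.7, 63.8 and 116 under IL-2 and 42.4, 47.0, 65.0 and 59.4 under IL-21. Uqcr11, a small subunit in the membrane, measured 37.4, then 41.5, 35.6, 49.1 and 91.3 and 32.5, 30.5, 49.6 and 40.3. Both stood above the control at 4 h of either cytokine and were highest in the 24 h IL-2 library, at 2.44 times (95% interval 2.25 to 2.66) and 2.44 times (95% interval 2.21 to 2.71) the control. The window of Uqcr11 (chr10:80406822-80406951, minus strand) holds the ETS letters, with the first base 66 before the start. The longer window of this gene, of 300 bases and described below, also holds NRF1 letters outside the bases printed.
Uqcr11: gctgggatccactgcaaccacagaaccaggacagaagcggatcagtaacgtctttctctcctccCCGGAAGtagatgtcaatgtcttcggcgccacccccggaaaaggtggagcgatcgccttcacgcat

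Uqcrb, which binds ubiquinone together with cytochrome b, was 1.71 times (95% interval 1.58 to 1.85) the control after 24 h of IL-2, and Uqcr10 was 1.49 times (95% interval 1.39 to 1.61). With IL-21 at 24 h these genes were 0.985 times (95% interval 0.905 to 1.07) and 0.791 times (95% interval 0.729 to 0.858) the control, so Uqcr10 lay on opposite sides of the control with the 2 cytokines. Uqcrc2, a core protein, read 61.7 RPKM in the control, 61.6, 61.4, 65.3 and 67.6 under IL-2 and 56.7, 56.9, 58.8 and 50.4 under IL-21. The IL-2 values of this gene stayed close to the control, and the 24 h IL-21 value was the lowest of the 9.

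Uqcrh, the acidic hinge protein that helps cytochrome c dock, was the most abundant member of this complex and the only one of the 8 below the control after 24 h of IL-2. It measured 287 RPKM in the control, 291, 228, 215 and 190.2 under IL-2 and 259, 232, 248 and 244 under IL-21. The IL-2 series was lower at each later time and ended at 0.662 times (95% interval 0.633 to 0.692) the control, while the 24 h IL-21 library was at 0.848 times (95% interval 0.815 to 0.881). Its window (chr4:116075071-116075200, minus strand) holds a CCAAT box 52 bases before the start and, on the opposite strand, the ETS letters 10 before it, so a gene that was high and a gene that was low both carry ETS letters.
Uqcrh: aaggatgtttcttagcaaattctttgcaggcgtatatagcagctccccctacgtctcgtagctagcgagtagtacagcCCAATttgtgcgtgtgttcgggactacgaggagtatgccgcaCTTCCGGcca

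Complex IV, cytochrome c oxidase, had the lowest IL-2 median of the 4 complexes at 24 h, as the genes were chosen by symbol. Of its 14 genes, 1 was at least 2-fold higher and 1 at least 2-fold lower. They include Cox4nb (0.93) and Cox7a2l (-0.98), which are not subunits, and the low tissue isoforms Cox6b2 (-1.15) and Cox7a1 (-0.08). Ndufa4 (1.47), whose protein is placed with this complex, is counted in complex I. The rank therefore describes this set of symbols and not the subunits of the enzyme. The 6 symbols that matched the naming rule but stayed under 1 RPKM were Cox4i2, Cox6a2, Cox7b2, Cox8b, Cox8c and Ndufa4l2, mostly isoforms of other tissues. Cox4i2, the hypoxia- and lung-associated isoform of subunit IV, was the highest of them, at 0.720 RPKM in the control, and Cox7b2, Cox8b and Cox8c had 0 reads in all 9 libraries, which allows up to 3 reads in each. Just inside the threshold were Cox7a1, with a highest value of 1.68 RPKM, and Atp5s, with 2.61 RPKM.

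Cox5a, a matrix-side subunit, measured 92.5 RPKM in the control, 92.2, 105, 123 and 200.1 under IL-2 and 84.0, 88.7, 110.5 and 117 under IL-21. It was higher at each time after 0.5 h with both cytokines and ended at 2.16 times (95% interval 2.05 to 2.28) the control with IL-2 and 1.27 times (95% interval 1.20 to 1.34) with IL-21. Cox6a1, the ubiquitous isoform of subunit VIa, measured 112, then 123, 104, 121 and 220.3 and 98.4, 88.9, 131 and 113, a 24 h IL-2 level of 1.97 times (95% interval 1.87 to 2.09) the control. Cox7b, a small transmembrane subunit, measured 55.1, then 56.6, 57.6, 66.1 and 102 and 52.1, 55.2, 65.8 and 59.3. The window of Cox6a1 (chr5:115348959-115349088, minus strand) carries a CCAAT box 74 bases before the start and the ETS letters on the opposite strand 16 before it. The longer window of this gene, of 300 bases and described below, also holds NRF1 letters outside the bases printed.
Cox6a1: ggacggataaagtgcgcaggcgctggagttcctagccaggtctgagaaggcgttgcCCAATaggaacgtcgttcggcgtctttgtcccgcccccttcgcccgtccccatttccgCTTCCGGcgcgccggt

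The most abundant subunits of this complex moved little. Cox4i1, the regulatory subunit IV of most tissues, measured 272 RPKM in the control, 288, 232, 227 and 283 under IL-2 and 229.8, 220.4, 269 and 247 under IL-21. Cox8a and Cox6b1 were 1.01 times (95% interval 0.966 to 1.06) and 1.14 times (95% interval 1.09 to 1.20) the control after 24 h of IL-2, and Cox7a2 was 1.57 times (95% interval 1.48 to 1.67). With IL-21 at 24 h, Cox6b1 was 0.819 times (95% interval 0.779 to 0.862) and Cox7a2 0.777 times (95% interval 0.726 to 0.832) the control. The 6 ubiquitous isoforms on the list, Ndufa4 included, had a median difference of 0.42 with IL-2 and -0.14 with IL-21 at 24 h.

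Of the tissue isoforms, Cox6b2, known from testis, was low and differed with both cytokines. It measured 7.57 RPKM in the control, 8.61, 6.48, 4.78 and 2.87 under IL-2 and 6.76, 6.22, 6.66 and 1.66 under IL-21. The lowest values were the 24 h libraries of both, at 0.378 times (95% interval 0.259 to 0.544) and 0.219 times (95% interval 0.141 to 0.331) the control, and it was the member counted as 2-fold lower after 24 h of IL-21. Cox7a1, the heart and muscle isoform, lay between 0.433 and 1.68 RPKM, and its 24 h IL-2 ratio of 0.900 times (95% interval 0.398 to 2.00) the control was not distinguishable from no difference at this depth. The 24 h IL-21 library had it at 0.340 times (95% interval 0.109 to 0.915) the control, with the whole interval below 1, although on the log2(RPKM + 1) scale, which understates differences of low genes, it was not counted as 2-fold lower.

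Symbols that match the rule but name proteins other than subunits went in different directions. Cox7a2l is known for a role in supercomplexes of complexes III and IV, which was not examined in the cells of this strain. Its mRNA measured 220.4 RPKM in the control, 222, 182, 154 and 111 under IL-2 and 206, 183, 193 and 218 under IL-21. The IL-2 libraries were lower at each later time and ended at 0.504 times (95% interval 0.485 to 0.524) the control, while the 24 h IL-21 library was at 0.988 times (95% interval 0.959 to 1.02). Atp5sl, now named Dmac2 and known as a complex I assembly factor, read 15.5 RPKM in the control, 16.0, 13.4, 10.5 and 6.24 under IL-2 and 14.0, 14.6, 14.5 and 14.0 under IL-21. Cox4nb, now named Emc8 and part of a membrane complex of the endoplasmic reticulum, read 3.51, then 3.67, 4.83, 6.02 and 7.57 and 3.26, 4.12, 4.85 and 4.21, and Atp5s stayed between 1.70 and 2.61 RPKM. Of the 3 members at least 2-fold lower after 24 h of IL-2, Ndufa6 and Cox6b2 are subunits and Atp5sl is not.

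**Figure D3:**
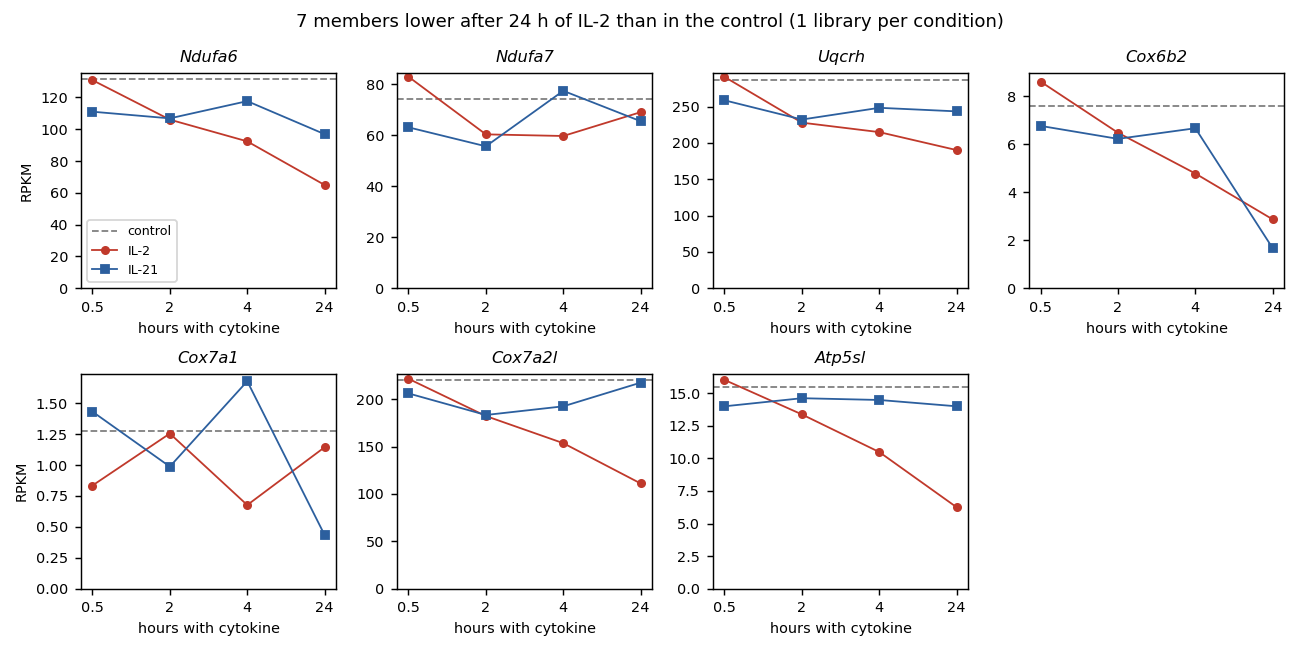
RPKM of 7 members that were lower after 24 h of IL-2 than in the control, against hours with cytokine; circles are IL-2, squares IL-21, the dashed line is the control, and each point is 1 library on an axis that starts at 0. Ndufa6, Uqcrh, Cox7a2l, Cox6b2 and Atp5sl are lower at each later time of IL-2, and Cox6b2 alone of these is also far below the control after 24 h of IL-21.

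Complex V, the ATP synthase, held 3 genes at least 2-fold higher and 1 at least 2-fold lower after 24 h of IL-2. The 3 genes of the c ring had a median difference of 1.01, the 5 of the catalytic F1 head 0.39, the 4 of the peripheral stalk 0.55 and the 3 accessory membrane subunits 0.62. The values within groups overlapped, since those of the c ring ran from 0.08 to 1.10 and those of the F1 head from 0.12 to 0.99, and the groups were not tested against each other. With IL-21 at 24 h the same groups had medians of -0.08, -0.15, 0.06 and -0.04.

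In the F1 head, Atp5b, the catalytic beta subunit, measured 251 RPKM in the control, 262, 269, 338 and 501 under IL-2 and 224, 237, 306 and 220.3 under IL-21. It was higher at each later time of IL-2, ending at 2.00 times (95% interval 1.96 to 2.04) the control, while with IL-21 it was highest at 4 h and below the control at 24 h. Atp5a1, the alpha subunit that alternates with beta, measured 173, then 174, 170.4, 198 and 261 and 159, 156, 189 and 162, and reached 1.51 times (95% interval 1.48 to 1.54) the control after 24 h of IL-2. The small head subunits Atp5d and Atp5e were 1.08 times (95% interval 1.04 to 1.13) and 1.18 times (95% interval 1.12 to 1.25) the control.

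The c subunit is encoded by 3 genes, Atp5g1, Atp5g2 and Atp5g3, known to give the same mature protein with different import sequences. Atp5g1 measured 36.5 RPKM in the control, 42.2, 41.0, 59.2 and 79.5 under IL-2 and 30.2, 35.1, 51.5 and 34.3 under IL-21. Atp5g3 measured 143, then 133, 154, 184 and 289.7 and 131, 141, 161 and 138. Atp5g2 measured 216, then 212, 175, 178 and 228 and 178, 175, 201 and 161. After 24 h of IL-2, Atp5g1 and Atp5g3 were 2.18 times (95% interval 2.02 to 2.36) and 2.03 times (95% interval 1.94 to 2.11) the control, whereas Atp5g2 was 1.06 times (95% interval 1.01 to 1.10). After 24 h of IL-21, Atp5g1 was 0.942 times (95% interval 0.863 to 1.03) the control, Atp5g3 0.967 times (95% interval 0.922 to 1.01) and Atp5g2 0.746 times (95% interval 0.715 to 0.778).

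The make-up of the c subunit mRNA therefore differed between libraries. Its summed level was 395 RPKM in the control, 597 after 24 h of IL-2 and 334 after 24 h of IL-21. Atp5g2 made 54.6% of that sum in the control and 38.2% after 24 h of IL-2, and Atp5g3 made 36.2% and 48.5%. Atp5g3 was the largest part at 4 h of IL-2, with 43.7% against 42.3% for Atp5g2, and at 24 h of IL-2, and Atp5g2 was the largest in the other 7 libraries. The share of Atp5g1 was 9.22% in the control and 13.3% after 24 h of IL-2, with 14.1% at 4 h of IL-2 and 12.5% at 4 h of IL-21.

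**Figure D4:**
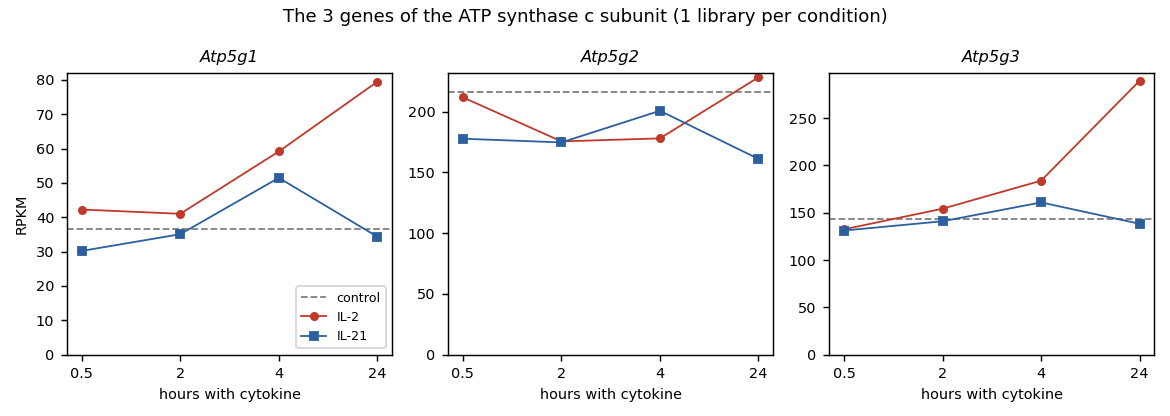
RPKM of the 3 genes for the ATP synthase c subunit against hours with cytokine; circles are IL-2, squares IL-21, the dashed line is the control, and each point is 1 library on an axis that starts at 0. Atp5g1 and Atp5g3 stand highest in the 24 h IL-2 library, while Atp5g2 stays between 161 and 228 RPKM in all 9.

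The promoter windows of the 3 c subunit genes are shown because their mRNAs differ while the mature protein does not. CCAAT letters are in the windows of Atp5g1 and Atp5g3 and not in that of Atp5g2. A link between letters and mRNA levels was not tested. That of Atp5g1 (chr11:96075632-96075761, minus strand) has CCAAT letters 4 times, beginning 126, 95, 92 and 69 bases before the start, of which those at 95 and 92 overlap on opposite strands, and an E-box 44 before it. That of Atp5g2 (chr15:102671048-102671177, minus strand) has the NRF1 letters on both strands, overlapping, 42 and 40 before the start. That of Atp5g3 (chr2:73911327-73911456, minus strand) has a CCAAT box 72 before the start and, on the opposite strand, the oestrogen-related receptor letters 52 before it. The longer window of Atp5g3, of 300 bases and described below, also holds an E-box outside the bases printed.
Atp5g1: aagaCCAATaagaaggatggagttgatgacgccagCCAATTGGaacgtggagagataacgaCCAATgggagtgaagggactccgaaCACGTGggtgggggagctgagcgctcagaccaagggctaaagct
Atp5g2: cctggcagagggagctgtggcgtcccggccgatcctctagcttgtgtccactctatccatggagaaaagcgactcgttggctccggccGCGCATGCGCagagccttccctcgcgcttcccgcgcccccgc
Atp5g3: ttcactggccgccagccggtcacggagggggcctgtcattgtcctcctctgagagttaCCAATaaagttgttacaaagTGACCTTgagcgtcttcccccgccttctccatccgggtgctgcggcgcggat

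In the stalk and membrane parts, Atp5k, the e subunit at the dimer interface, measured 85.4 RPKM in the control, 91.7, 87.5, 98.5 and 181 under IL-2 and 77.5, 82.8, 93.9 and 83.3 under IL-21. It was 2.12 times (95% interval 1.95 to 2.303) the control after 24 h of IL-2. Atp5l, the g subunit, was 1.36 times (95% interval 1.29 to 1.43), and the stalk genes Atp5h and Atp5o were 1.32 times (95% interval 1.26 to 1.38) and 1.46 times (95% interval 1.39 to 1.54) the control. With 24 h of IL-21, Atp5o was at 0.768 times (95% interval 0.726 to 0.811) and Atp5l at 1.08 times (95% interval 1.03 to 1.14) the control, so stalk and membrane genes lay on both sides of the control with that cytokine.

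The time courses were also tested across libraries with edgeR's quasi-likelihood test on read counts, fitting within each cytokine a slope against the logarithm of hours over the 8 cytokine libraries, with 4 residual degrees of freedom, and adjusting p over 10453 genes by the Benjamini-Hochberg method. This fit does not use the control library. Slopes are in log2 units for each doubling of hours. The labels do not say whether separate animals or cultures stand behind the libraries, so the p-values measure only how these libraries spread, part of which may be technical.

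Under IL-2, 13 of the 75 genes (17.3%) rose with time at an adjusted p under 0.05, against 6.74% of all genes tested, and 3 (4.0%) fell, against 6.62%. In complex I, 7 rose and 1 fell, in complex III 1 rose, in complex IV 3 rose and 1 fell, and in complex V 2 rose and 1 fell. Of these 16 genes, Cox4nb, which rose, and Cox7a2l and Atp5sl, which fell, are the ones that are no subunits. The steepest rise was that of Ndufa4, with a slope of 0.26 (SE 0.05, adjusted p = 0.0224) in edgeR's test. Cox5a rose with a slope of 0.20 (SE 0.04, adjusted p = 0.0218), Atp5g3 with 0.20 (SE 0.04, adjusted p = 0.0214), Atp5b with 0.17 (SE 0.04, adjusted p = 0.0435) and Uqcrq with 0.21 (SE 0.05, adjusted p = 0.0465). The others that rose were Ndufa1, Ndufa12, Ndufb6, Ndufc1, Ndufs1, Ndufs6, Cox7b and Cox4nb, with slopes between 0.14 and 0.20.

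The 3 genes that fell under IL-2 were Atp5sl, with a slope of -0.26 (SE 0.04, adjusted p = 0.0199) in edgeR's test, Cox7a2l with -0.19 (SE 0.04, adjusted p = 0.0258) and Ndufa6 with -0.19 (SE 0.04, adjusted p = 0.0264). Uqcrh had a slope of -0.11 (SE 0.03, adjusted p = 0.0702) and did not pass. Of the 11 genes at least 2-fold above the control after 24 h, 3 did not pass, namely Uqcr11 with 0.21 (SE 0.06, adjusted p = 0.0658), Atp5k with 0.18 (SE 0.05, adjusted p = 0.0516) and Atp5g1 with 0.17 (SE 0.06, adjusted p = 0.0989). Of all 75 genes, 35 had an unadjusted p under 0.05 and 65 had a positive slope. Over all 10453 genes tested, 3512 had an unadjusted p under 0.05 and 51.4% had a positive slope.

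**Figure D5:**
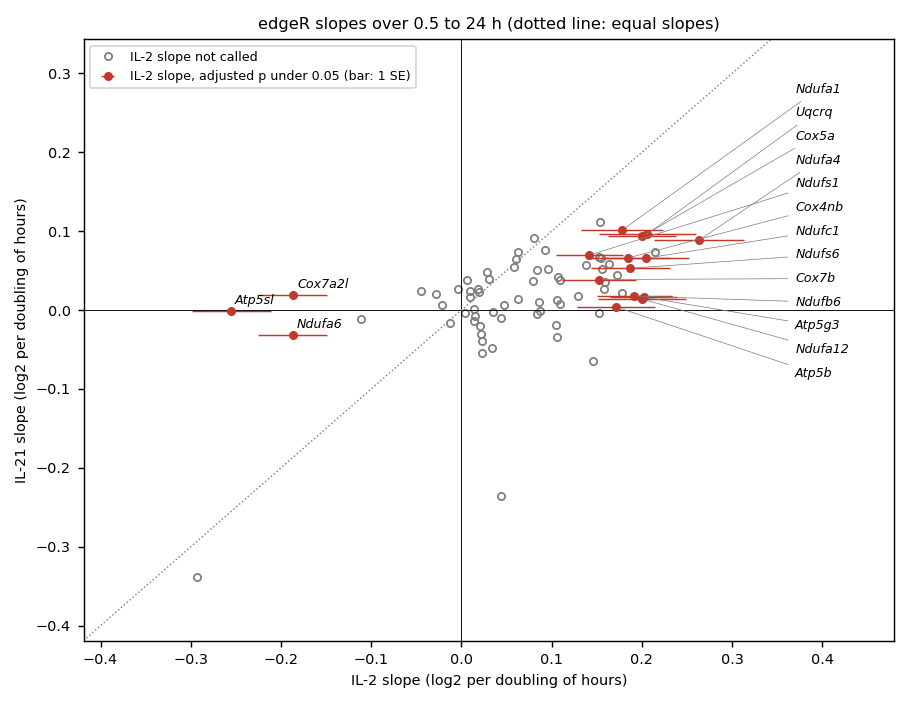
Slope of each member under IL-2 (horizontal) and IL-21 (vertical) from edgeR, in log2 units for each doubling of hours over 0.5 to 24 h; filled points passed an adjusted p under 0.05 under IL-2 (bars: 1 SE), open points did not, and the dotted line marks equal slopes. The 13 genes that rose under IL-2 lie right of the dotted line, and no member passed under IL-21.

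The calls under IL-2 rest on the 24 h library. Without it edgeR called 0 members in either direction and 0 of 10453 genes. Without the 2 h IL-2 library it called 1 member higher and 1 lower, and of all genes 221 higher and 284 lower. Scaling moved the split as well, since upper quartile scaling gave 4 members higher and 4 lower in place of 13 and 3. Of all genes it gave 475 higher and 1016 lower in place of 705 and 692. Over the 16 alternative settings Ndufa4 and Atp5sl passed in 15, Cox5a in 14 and Cox7b in 3.

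Under IL-21, edgeR called 0 members and 0.0% of all genes. At an unadjusted p under 0.05 there were 2 members, Cox6b2 and Cox5a, and 798 of 10453 genes. DESeq2 called 0 members. The difference between the IL-2 and IL-21 slopes was tested directly. edgeR called 0 members and 0.0% of all genes, and the lowest adjusted p of a member was 0.125, for Atp5sl. An unadjusted p under 0.05 was found for 9 of 75 members and for 2011 of 10453 genes. DESeq2 called 3 of 75 members for this difference, and of 10453 genes it called 353 higher and 372 lower. Atp5sl had a difference of -0.26 (SE 0.07, DESeq2 adjusted p = 0.00671), Cox7a2l -0.21 (SE 0.06, DESeq2 adjusted p = 0.0165) and Atp5g3 0.18 (SE 0.06, DESeq2 adjusted p = 0.0332). A slope that passed with IL-2 and not with IL-21 is therefore not shown by edgeR to differ between them.

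Averaged over the 4 times, with time as a factor and 3 residual degrees of freedom, edgeR called 0 members as different between IL-2 and IL-21, and 0.0383% of all genes. The mean difference is set against its own variation between times, so a difference present at a single time widens that variation. The estimate was above 0 for 68 of 75 members, with a median of 0.15, and for 50.5% of all genes. An unadjusted p under 0.05 was found for 1532 of 10453 genes and for 1 member. That gene was Atp5g1, with a mean difference of 0.49 (SE 0.19, adjusted p = 0.328). DESeq2 called 0 members here.

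Other genes of the pathway were taken from lists chosen by function. Among carriers between the complexes, Cycs, cytochrome c itself, measured 16.9 RPKM in the control, 16.7, 27.8, 42.7 and 53.6 under IL-2 and 21.6, 34.1, 31.1 and 32.9 under IL-21, and rose under IL-2 (edgeR adjusted p = 0.0265). Cyc1, cytochrome c1 of complex III, whose symbol lies outside the naming rule, was 2.06 times (95% interval 1.93 to 2.203) the control after 24 h of IL-2 and did not pass the slope test (edgeR adjusted p = 0.0532). Cycs reached 3.18 times (95% interval 3.01 to 3.35) the control after 24 h of IL-2, and its log2 difference from the control at 24 h was 1.61 with IL-2 and 0.92 with IL-21.

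The 4 genes of complex II, which feeds electrons from succinate and pumps no protons, had a median of 0.19 at 24 h of IL-2, with 0 of 4 past 2-fold and 0 of 4 called by slope. Sdhb, its iron-sulfur subunit, was 1.63 times (95% interval 1.55 to 1.72) the control and Sdha, its flavin subunit, 1.08 times (95% interval 1.04 to 1.12). Of 10 complex I accessory and assembly genes outside the rule, 1 rose. It was Ndufab1, the mitochondrial acyl carrier protein, at 24.4 RPKM in the control, 22.4, 27.02, 39.6 and 58.5 under IL-2 and 22.3, 25.2, 29.3 and 25.0 under IL-21. This partner of the LYR-motif subunits reached 2.402 times (95% interval 2.19 to 2.64) the control after 24 h of IL-2, where Ndufa6 was lower.

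For complex V, 1 of 5 assembly or accessory genes rose. It was Usmg5, a small membrane subunit also called DAPIT, at 1.96 times (95% interval 1.82 to 2.12) the control after 24 h of IL-2. The 12 complex IV assembly genes had a median of 0.46 and 0 slope calls, the 4 of complex III a median of -0.03 and 0 calls, and the 11 of coenzyme Q synthesis a median of 0.36 and 0 calls. The 11 genes that copy and transcribe mitochondrial DNA had a median of 0.25 and 0 calls, with Tfam, which packages that DNA, at 10.9 RPKM in the control, 10.4, 9.21, 11.3 and 16.5 under IL-2 and 10.7, 9.10, 9.12 and 10.4 under IL-21.

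Of 8 regulators of respiratory genes that reached 1 RPKM, 0 were called by slope and the median difference after 24 h of IL-2 was 0.38. Pprc1, a coactivator related to PGC-1alpha, was high early with both cytokines, at 5.28 RPKM in the control, 5.70, 28.2, 31.5 and 20.9 under IL-2 and 4.79, 20.6, 16.2 and 9.41 under IL-21. It was already high at 2 h, when the median difference of the 75 genes was -0.10 with IL-2 and -0.17 with IL-21. Nrf1 measured 10.5, then 10.1, 10.2, 12.1 and 16.9 and 8.68, 9.03, 12.4 and 9.59, and Ppargc1a, PGC-1alpha itself, stayed under 0.04 RPKM in all 9 libraries.

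Promoter windows of 300 bases, from 250 before to 50 after the annotated start, were found for 64 of the 75 members (70 windows) in the RefSeq table. The YY1 letters were in 18.6% of member windows, against 7.39% of 11117 windows of genes that reached 1 RPKM and 6.34% of all 32851 windows. The NRF1 letters were in 12.9% of member windows, against 5.52% and 2.71%, and the oestrogen-related receptor letters in 10.0%, against 3.22% and 4.72%. ETS letters were in 20.0% of member windows against 19.2% of expressed genes, the E-box in 12.9% against 10.3%, and CCAAT in 41.4% against 38.4%. The STAT letters TTCNNNGAA were in 8.57% of member windows against 7.05% of expressed genes, and the GC box GGGCGG in 37.1% against 63.0%. The members' windows had a median GC content of 57.3%, beside 60.7% for expressed genes. A match is a description of letters only.

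Other measures also differed between libraries, some of them before 24 h. The 9 B cell markers summed to 62.2 RPKM in the control, 28.2 after 24 h of IL-2 and 11.6 after 24 h of IL-21, with all 9 reaching 1 RPKM in some library, and the 5 erythroid markers were at or under 3.23 RPKM in sum in every library. The 7 macrophage markers found, of which 3 reached 1 RPKM, summed to between 2.83 and 8.48 RPKM, the 5 dendritic markers to between 0.620 and 2.27, and the 2 CD8 T cell markers to between 6.27 and 11.3. Fcgr1 of macrophages, Siglech of plasmacytoid dendritic cells and Alas2 of red cell precursors had at most 3 reads in any library. The sum of the 6 NK genes was lowest in the 24 h IL-2 library (116 RPKM) and highest in the 24 h IL-21 library (521 RPKM). Gzma made nearly all of it. Ncr1, Klrb1c, Klra8 and Klre1 each stayed at or under 0.510 RPKM in all 9 libraries. Eomes lay in the opposite order, at 2.45 RPKM in the 24 h IL-2 library and 0.725 RPKM in the 24 h IL-21 library. The sum therefore follows Gzma and was not taken as a measure of NK cells. The CD4 T cell markers summed to 1600.3 RPKM in the control. Under IL-2 they summed to 1596.5, 1180, 1020 and 999 RPKM at 0.5, 2, 4 and 24 h. Under IL-21 they summed to 1481, 1228, 1300 and 1565 RPKM, so both courses were lower by 2 h. The part of all these markers in the differences of the subunit genes was not tested.

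Transcript length also set the members apart, with a median of 647 nt against 2638 nt for all genes. Among other genes under 400 nt, the median difference after 24 h of IL-2 was 0.53 (53 genes), above the 0.43 of the 3 members in that range, and among those of 400 to 600 nt it was 0.01 (195 genes). The 32 members of 400 to 600 nt had a median of 0.66, and the 19 members of 600 to 1000 nt 0.24, where other genes had -0.03. The 3 members under 400 nt were Atp5k, Ndufa3 and Cox7a1. Many of these genes have processed pseudogenes, whose reads the counting could have assigned either way, so their levels carry that uncertainty in every library.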

How the data were processed

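The 9 RNA libraries were used, and the 19 chromatin samples were not analysed here. Per the file headers, the deposited tables give each RefSeq transcript a length, a read count and its RPKM. Names of programs come from the submitters' processing notes without roles: Bowtie 0.12.9, TopHat2 2.0.11, HOMER and SAMtools, with mouse build mm9. Which program counted reads, and whether by strand, is not given in the sources used here. Deposited RPKM values equal the count divided by transcript length and by a library total of 29.5 to 44.3 M reads. Members, lists and tests were chosen with earlier results of these data known.

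Each symbol was represented by its transcript of highest mean RPKM, and symbols of short RNAs were left out. Library pairs were compared on log2(RPKM + 1) over 11048 genes whose highest value was at least 1 RPKM. Counts were tested with edgeR 4.0.16 (quasi-likelihood, TMM scaling, Benjamini-Hochberg adjustment over the 10453 genes averaging at least 1 RPKM), after the scripts were tested on simulated data. DESeq2 1.42.0, limma 3.58.1, other scalings, filters, transcripts, pseudocounts and each library left out were alternatives. Members named are, in each complex, those highest in mean, those with the largest or lowest 24 h differences, those an edgeR test called, and the isoform lists. The values of 1 member that this rule names are not reported here. Promoters came from RefSeq (GRCm38.p6), 75 members matching by identifier and 64 having a window.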

Additional observations from a re-analysis of the deposited data

Results flagged for a closer look

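Uqcrfs1, the Rieske iron-sulfur protein of complex III, was the 1 member of 75 for which all 4 IL-2 libraries lay above the control and all 4 IL-21 libraries below it. It measured 51.6 RPKM in the control, 61.1, 55.4, 57.5 and 66.8 RPKM after 0.5, 2, 4 and 24 h of IL-2, and 48.8, 49.3, 48.6 and 42.2 RPKM after the same times of IL-21. The IL-2 and IL-21 values did not overlap, and the control lay between them. The gene is shown because of that position around 1 shared control library, which was not tested as such. How many of all genes show the same pattern is not given, so 1 of 75 has no background share beside it. The mean difference between the cytokines was 0.31 on the log2 scale (SE 0.13, edgeR adjusted p = 0.340), and the difference of slopes was 0.06 (SE 0.05, edgeR adjusted p = 0.555), so neither passed the threshold.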

How the results depend on the processing

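The mean difference between cytokines pairs the libraries by time. By replicate number, no paired analysis was possible because each RNA condition has 1 library and no such number. Differences between 2 libraries have no replicate check, depth limits only the lowest members (Cox7a1, Atp5s, Cox6b2), and the slope calls rest on 8 libraries. In all 28 recomputed medians of complexes for each 24 h comparison the sign stayed as reported, under the scalings, pseudocount, filter, fold, transcript choice and removal of non-subunits that were tried.

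Against the control at 24 h of IL-2, upper quartile scaling gave 3 members 2-fold higher and medians of 0.30, 0.36, 0.070 and 0.34 for complexes I, III, IV and V. Without the filter on low values the complex IV median was 0.057. At 1.5-fold 32 members were higher and 5 lower. For IL-21 at 24 h, 2 members were lower with a pseudocount of 0.1 and 2 at 1.5-fold, and the complex IV median without the filter was -0.018. Between the cytokines at 24 h, TMM scaling gave 4 higher and 2 lower, with medians of 0.34, 0.63, 0.55 and 0.42, upper quartile scaling 3 and 2, with 0.29, 0.58, 0.50 and 0.37, and DESeq2 size factors 2 lower and a complex V median of 0.46. The complex IV median was 0.75 with a pseudocount of 0.1 and 0.54 without the filter. At 1.5-fold 34 were higher and 2 lower, beside 2441 and 1749 of 11048 genes. Without the symbols that are not subunits 0 were lower and the complex V median was 0.66.

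For the IL-2 slope, DESeq2 called 23 members higher and 5 lower, and 2604 of all genes against edgeR's 1397, and upper quartile scaling left 4 members higher. Leaving out each library in turn gave 0 to 12 members higher, 0 to 4 lower and 0 to 1585 genes in all. The lowest counts came without the 24 h IL-2 library. Other libraries whose removal moved the member counts by over 1.5 times were IL-2 at 0.5 h (7 higher, 1 lower), 2 h (1 and 1) and 4 h (3 and 2), and IL-21 at 2 h (3 and 2). Of all genes, the same removals left 410 higher and 221 lower, 221 and 284, 307 and 347, and 363 and 367. For the difference of slopes DESeq2 called 3 members and, of all genes, 353 higher and 372 lower, the fit without a filter 2 and 8, and leaving out libraries gave 0 to 228 higher and 0 to 86 lower. For the mean difference DESeq2 called 450 genes, the fit without a filter 19 in place of 4, and leaving out libraries 0 to 105. For the IL-21 slope DESeq2 called 177 genes, limma 5, upper quartile scaling 1, ranks of time 1, the fit without a filter 20, and leaving out libraries 0 to 2. Where a value moved, the cause was not tested.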
